A study of Mus musculus with 48 samples.

Results

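The liver and the subcutaneous white adipose tissue (WAT) of sham-operated obese mice were compared to see how the 2 tissues divided lipid synthesis, storage, oxidation and secretion at the level of RNA. The comparison took the 4 liver and the 4 WAT libraries of the sham group, which were 8 of the 48 libraries of the series. It used the 11234 genes listed for both tissues, of 14022 genes listed for either. All mice were male C57Bl6 mice with diet-induced obesity on a high fat diet. The sham mice had surgery without the bypass, then received a liquid elemental diet, and their tissues were taken on day 9 at 10 am after fasting. The mice with Roux-en-Y gastric bypass (RYGB), in which food is led past most of the stomach and the duodenum, shared the strain, the obesity and both diets, and their 4 liver and 4 WAT libraries were used for 1 further comparison. Obesity came from the diet alone and no transgene was involved. The labels gave neither the age of the mice nor whether a liver and a WAT library with the same number came from the same mouse. They did not say either that every library of a group was a separate animal, so that p-values measure the spread between these libraries. Each tissue came as a table of its own, so that tissue and the preparation of its table cannot be told apart.

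The liver and white fat share the handling of fatty acids but keep different parts of it. Adipocytes take up fatty acids released from circulating lipoproteins, store them as triglyceride in a large lipid droplet and release them again by lipolysis during fasting. Hepatocytes oxidise part of the fatty acids that reach them, turn the acetyl-CoA into ketone bodies, and send triglyceride and cholesterol out in lipoproteins. Both tissues can make fatty acids from glucose when food is available.

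Expression was given in CPM, the counts of a gene per 1000000 counts of its library. The markers of the labelled tissues were found where the labels placed them. Alb, which encodes albumin of the hepatocyte, was between 63139 and 80048 CPM in the livers and between 6.6 and 30.4 CPM in WAT. The 6 adipocyte markers listed for both tissues summed to between 13618 and 21882 CPM in WAT and to between 49.2 and 91.8 CPM in the liver. Most markers of macrophages and of fibroblasts and stellate cells were also higher in WAT. The 15 macrophage markers listed for both tissues summed to between 3093 and 5458 CPM, against 444 to 744 CPM in the liver. The liver sum was 574 to 988 CPM with 1 marker not listed for WAT. The 11 fibroblast and stellate cell markers summed to between 4739 CPM and 16466 CPM, the highest in WAT replicate 2, against 374 to 498 CPM. By the calls described below, 13 macrophage markers were higher in WAT and 2 in the liver. For the fibroblast and stellate cell markers these counts were 9 and 2, beside 60.1% and 12.3% of all genes tested. The 7 keratinocyte markers listed for WAT summed to between 9.1 CPM in replicate 4 and 196 CPM in replicate 3, and the 4 muscle markers reached 66.1 CPM in replicate 2. The part of these cells in the differences was not tested. In bulk tissue, fewer cells of a type and less RNA per cell cannot be told apart.

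Genes were called DEGs where limma on log2(CPM + 1) gave an adjusted p below 0.05 with a fold change of 1.5 or more. On this scale a difference is understated for genes near 1 CPM. Of 11224 genes tested, 8120 (72.3%) were DEGs, 1379 (12.3%) higher in the liver and 6741 (60.1%) higher in WAT. This split depended on how the libraries were scaled. The median log2 fold change of liver over WAT was -0.86 over all genes. The 609 genes listed for the liver but not for WAT took between 20.3% and 22.8% of a liver library, and the 2179 genes listed for WAT but not for the liver took between 3.49% and 3.72% of a WAT library. After scaling by the median ratio, 3262 genes (29.1%) were higher in the liver and 3433 (30.6%) in WAT, 59.6% in all. The share of DEGs that were higher in the liver was 17% in CPM and 48.7% after this scaling. Counts are therefore given under both. A gene listed for 1 tissue is reported with its level there and without a fold change.

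The 14 lists of lipid and fuel genes held 291 different genes. Of these 214 were listed for both tissues and all 214 were tested, 51 were listed for the liver but not for WAT, 24 for WAT but not for the liver, and 2 (Cpt1b and Cebpd) for neither. In CPM, 101 (47.2%) of the 214 were higher in the liver and 74 (34.6%) were higher in WAT, beside 12.3% and 60.1% over all genes tested. After median-ratio scaling the counts were 130 and 49, beside 29.1% and 30.6% over all genes tested. No member was a DEG in opposite directions under the 2 scalings. The median log2 fold change of the 214 genes was 0.44.

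**Figure D1:**
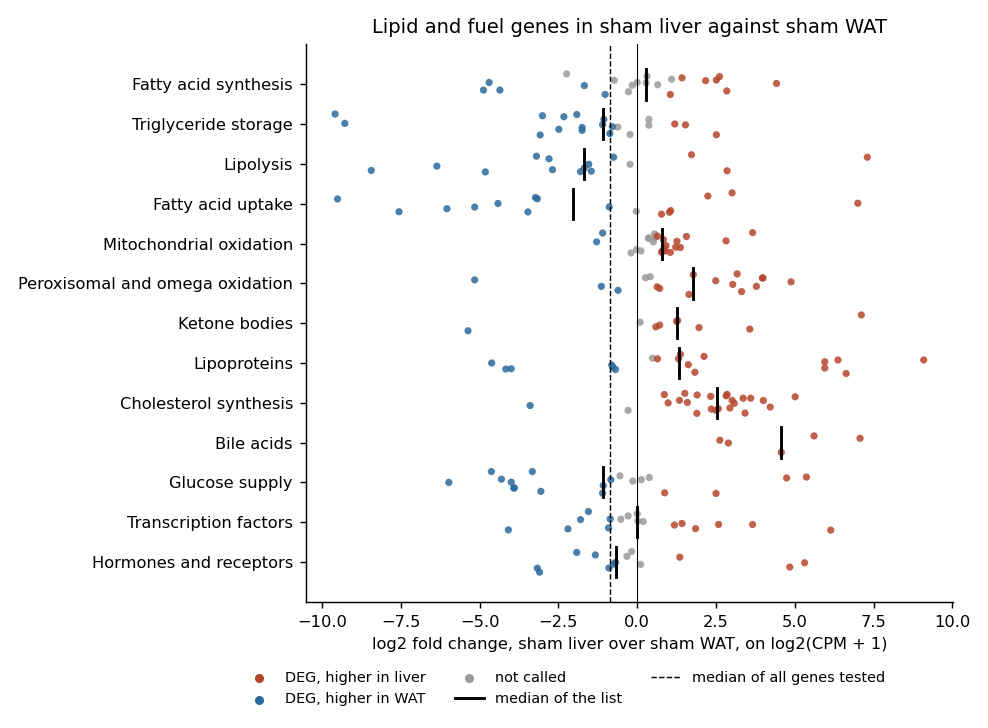
Log2 fold change of sham liver over sham WAT on log2(CPM + 1) (x axis) for every tested member of 13 lists (rows), with 1 point for each gene. Red points were DEGs higher in the liver, blue points DEGs higher in WAT and grey points were not called; thick lines mark the median of a list and the dashed line the median of all genes tested (-0.86). The medians for cholesterol (2.54) and bile acids (4.57) lie to the right of 0, and those for uptake (-2.03) and lipolysis (-1.68) reach farthest to the left.

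The transcripts for the uptake of fatty acids were called in both directions. Of 16 members tested, 9 were higher in WAT, 6 were higher in the liver and 1 was not called. Over all genes tested, 60.1% were higher in WAT, a share near that of the list, and 12.3% were higher in the liver. The median log2 fold change was -2.03. After median-ratio scaling the counts were 8 and 7, beside 30.6% and 29.1% of all genes tested. Lpl (chr8:68880491-68907448 in GRCm38) encodes lipoprotein lipase, which frees fatty acids from circulating triglyceride. It was at 6834.1, 5902.5, 4891.7 and 5923.8 CPM in the WAT libraries and at 24.5, 28.5, 32.8 and 34.9 CPM in the liver libraries. The mean was 195-fold higher in WAT, with a log2 fold change of -7.56 ± 0.15 (SE) and an adjusted p of 8.33e-11. Gpihbp1, which holds this lipase on the capillary wall, went the same way, with 98.5 to 269.1 CPM in WAT and 6.0 to 18.1 CPM in the liver.

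The fatty acid carriers of adipocytes were also among the largest differences. Cd36, a fatty acid translocase, was at 4449.2, 4772.9, 7758.6 and 7091.4 CPM in WAT and at 75.4, 156.6, 312.4 and 188.8 CPM in the liver, a log2 fold change of -5.16 ± 0.38 (adjusted p = 3.72e-07). Fabp4 (chr3:10204088-10208576), the fatty acid binding protein of adipocytes, was at 7498.3, 7702.6, 14430.8 and 13319.8 CPM in WAT and at 8.7, 14, 18.1 and 13 CPM in the liver. Every WAT library lay above every liver library for both genes, as was so for 67.8% of all genes tested. Slc27a1, a fatty acid transport protein, was between 304.8 and 769 CPM in WAT and between 4.5 and 9.8 CPM in the liver. The liver had other members of these families. Fabp1, its fatty acid binding protein, was at 2283.6, 3637.3, 2964.5 and 3470.6 CPM, Slc27a2 at 986.5 to 1337 CPM and Slc27a5 at 868.2 to 1163.5 CPM, and none of the 3 was listed for WAT. Lipc, the hepatic lipase, was at 116.6 to 190.8 CPM in the liver and was not listed for WAT either.

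Angptl4, a secreted inhibitor of lipoprotein lipase, was at 44.6, 34.6, 61.6 and 37.4 CPM in the liver and at 143.9, 370.9, 791.5 and 599.8 CPM in WAT (-3.17 ± 0.45, adjusted p = 6.08e-05). The WAT libraries spread over a wider range for Angptl4 than the liver libraries, and replicate 1 was the lowest of them.

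Of 20 members tested for the storage of triglyceride, 13 were higher in WAT, 3 in the liver and 4 were not called, a share near the 60.1% of all genes tested that were higher in WAT. After median-ratio scaling 9 were higher in WAT and 6 in the liver, beside 30.6% and 29.1% of all genes tested. The median log2 fold change of the list moved from -1.08 to -0.20. The coat proteins of the lipid droplet differed most. Plin4 was at 3281.5, 2927.3, 3716.4 and 3974.9 CPM in WAT and at 2.7, 2.3, 6.2 and 3.6 CPM in the liver, and Cidec (chr6:113424634-113435760), which fuses droplets, at 1623.8, 1199.4, 1830.6 and 2187.4 CPM and at 0.9, 1.7, 3.3 and 1.4 CPM. Their log2 fold changes were -9.59 ± 0.22 (adjusted p = 2.15e-10) and -9.28 ± 0.25 (adjusted p = 5.03e-10). Plin1, the main droplet coat of adipocytes, was at 817 to 1383.6 CPM in WAT and was not listed for the liver. Cideb, the liver relative of Cidec, was at 255.1, 272.6, 294.5 and 234.5 CPM in the liver and was not listed for WAT. Plin5, a droplet protein of oxidative tissues, was higher in the liver, with 32.7 to 39.8 CPM against 10.3 to 13.2 CPM in WAT. Plin2, a coat found in most cells, was at 275 to 424.6 CPM in the liver and 448.4 to 884.5 CPM in WAT. Its log2 fold change was -0.79 in CPM and 0.13 after scaling, so that no direction can be given for it.

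Some enzymes that assemble triglyceride differed between the tissues and others did not. Dgat1, an enzyme of the last step, was at 18.5, 19.8, 25.6 and 17.8 CPM in the liver and at 199.3, 130.6, 175.2 and 181.6 CPM in WAT (-3.01 ± 0.15, adjusted p = 2.2e-08). Dgat2, which catalyses the same step, was at 481.2, 477.8, 407.9 and 434.5 CPM in the liver and at 1515.6, 1146.0, 233.8 and 560.6 CPM in WAT. The tissues overlapped for Dgat2 and it was not called (-0.62 ± 0.48, adjusted p = 0.244), though it was without WAT replicate 3 (-1.14). After median-ratio scaling Dgat2 was at 0.3 and not called (limma, adjusted p = 0.598), so that no direction can be given for it. Among the lipins, which dephosphorylate phosphatidate, Lpin1 was 4.97-fold higher in WAT and Lpin2 was 5.93-fold higher in the liver by the means. Gpat3 was between 58.4 and 148.3 CPM in WAT and between 7.1 and 12.2 CPM in the liver, while Gpam, which catalyses the same initial acylation, was higher in the liver, with 113.2 to 336.1 CPM against 69.2 to 109.9 CPM.

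Of 15 members tested for lipolysis, 11 were higher in WAT, 3 in the liver and 1 was not called, beside 60.1% and 12.3% of all genes tested. After scaling 8 were higher in WAT and 4 in the liver, beside 30.6% and 29.1% of all genes. Pnpla2 (chr7:141455198-141460743) encodes adipose triglyceride lipase, which removes the initial fatty acid. It was at 1409.1, 1166.4, 1877.2 and 1756.9 CPM in WAT and at 48.0, 53.9, 63.0 and 48.5 CPM in the liver, 29.1-fold higher by the means (-4.82 ± 0.16, adjusted p = 1.84e-09). Lipe, hormone-sensitive lipase, was at 1728.4, 1413.7, 1602.8 and 1812.1 CPM in WAT and at 15.3, 17.9, 20.2 and 22.8 CPM in the liver (-6.36 ± 0.13). Mgll, which removes the last fatty acid, was 7.02-fold higher in WAT by the means. Prkar2b, a regulatory subunit of protein kinase A, was between 634.1 and 733.1 CPM in WAT and at or below 1.2 CPM in every liver library, a log2 fold change of -8.44 ± 0.11. Adrb3, the adrenergic receptor that starts lipolysis in rodent fat, was at 405.5, 155.3, 101.5 and 96.3 CPM in WAT and at 13.9 to 18.3 CPM in the liver, with WAT replicate 1 far above the other WAT libraries.

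The glycerol released by lipolysis is exported by fat and taken up by the liver. Aqp7, the glycerol channel of adipocytes, was at 283.4, 284.1, 611.6 and 535.3 CPM in WAT and was not listed for the liver. Aqp9, the glycerol channel of hepatocytes, was at 521.7, 619.5, 550.5 and 522.0 CPM in the liver and at 2.5, 3.1, 2.4 and 2.1 CPM in WAT (7.30 ± 0.10, adjusted p = 2.17e-11). Gk, glycerol kinase, was at 94.0 to 121.6 CPM in the liver and at 11.9 to 16.6 CPM in WAT. Both genes were higher in the liver without overlap, as were 14.7% of all genes tested.

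**Figure D2:**
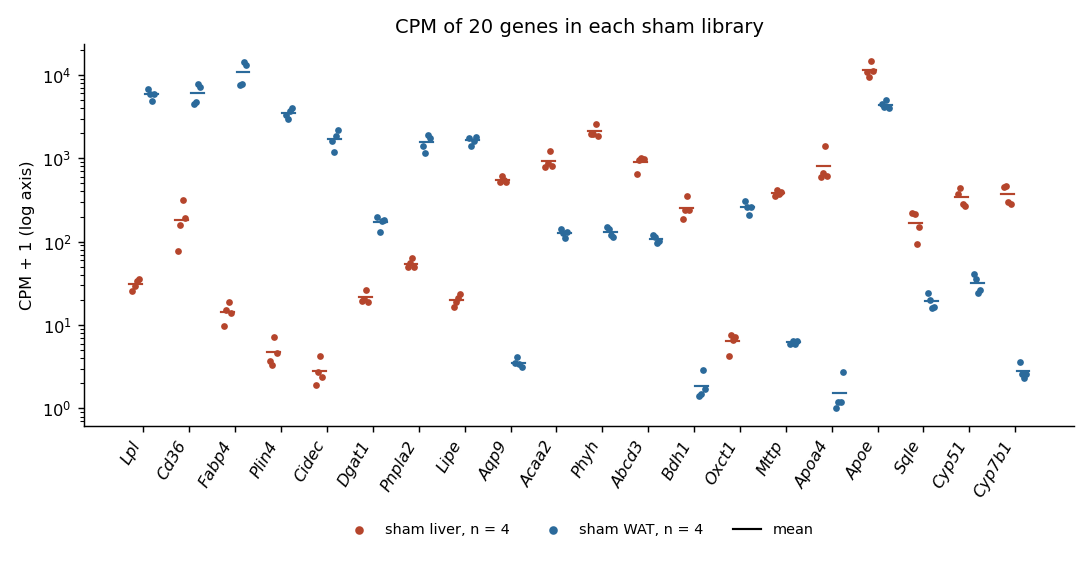
CPM + 1 (y axis, log scale) of 20 genes (x axis) in each of the 4 sham liver libraries (red) and the 4 sham WAT libraries (blue), with short lines at the means. The genes run from uptake, storage and lipolysis on the left, where the WAT points stand above the liver points from Lpl to Lipe, to oxidation, lipoproteins, cholesterol and bile acids on the right, where the liver points stand above except for Oxct1.

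Genes of fatty acid synthesis were called in both directions. Of 21 members tested, 7 were higher in the liver, 5 in WAT and 9 were not called. Of all genes tested, 12.3% were higher in the liver and 60.1% in WAT. The median log2 fold change was 0.28, against -0.86 over all genes. After scaling 12 were higher in the liver and 4 in WAT, beside 29.1% and 30.6% of all genes. Relative to all genes the list thus leaned toward the liver. The central enzymes varied so much between libraries of 1 tissue that the tissues overlapped. Fasn (chr11:120805846-120824547), fatty acid synthase, was at 1050.4, 1992.9, 547.3 and 1241.6 CPM in the liver and at 6938.7, 2157.6, 179.2 and 240.4 CPM in WAT (0.28 ± 1.04, adjusted p = 0.803). WAT thus held both the highest and the lowest libraries. Scd1, which desaturates stearate to oleate, was at 11755.4, 22110.2, 817.7 and 19376.6 CPM in the liver and at 45882.1, 46075.4, 44186.2 and 21784.3 CPM in WAT. It was among the most abundant transcripts of both tissues, and its difference of -2.24 ± 0.97 just missed the threshold (adjusted p = 0.0501). It passed without liver replicate 2 or 4 or WAT replicate 4 (-2.72, -2.66 and -2.5), and on all libraries at -2.24 with a minimum mean of 10 CPM or with empirical Bayes without trend. After median-ratio scaling Scd1 was at -1.32 ± 1.02 and was not called (limma, adjusted p = 0.254). Liver replicate 3 was far below the other livers, and WAT replicate 4 below the other WAT libraries. Together the 21 genes took 1.69%, 3.11%, 0.492% and 2.57% of the liver libraries and 5.87%, 5.19%, 4.68% and 2.45% of the WAT libraries. Scd1 carried much of these sums, and the other 20 genes took 0.515%, 0.894%, 0.41% and 0.631% of the liver libraries and 1.28%, 0.581%, 0.258% and 0.275% of the WAT libraries.

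Some steps before and after the synthase did differ. The acetyl-CoA carboxylases were less clear. Acacb was not called (-0.73), and Acaca was higher in WAT in CPM (-1.02) but was not called after median-ratio scaling (-0.11). G6pdx and Pgd, enzymes of the pentose phosphate route, which yields NADPH, were higher in WAT. G6pdx was at 180.5, 199.1, 315.7 and 358 CPM in WAT and at 3.9, 30.4, 5.8 and 7.7 CPM in the liver (-4.70 ± 0.50, adjusted p = 6.38e-06), and Pgd was 3.17-fold higher in WAT by the means. Scd2, the second desaturase of the family, was at 7.2 to 11.6 CPM in the liver and at 638.1, 553.1, 134.8 and 177.4 CPM in WAT. Several desaturases and elongases were higher in the liver. Fads2 was at 214.9, 414, 250.6 and 327.9 CPM in the liver and at 13.2, 16.9, 11.3 and 10.2 CPM in WAT (4.42 ± 0.21, adjusted p = 1.52e-08). Fads1, Elovl5 and Elovl6 had log2 fold changes of 2.51 ± 0.16, 2.17 ± 0.31 and 2.84 ± 0.38, while Elovl1 (-0.16) and Tecr (0.31) were not called in CPM and were higher in the liver after scaling (0.74 and 1.22). Elovl2, which elongates polyunsaturated fatty acids, was at 462.8 to 770.3 CPM in the liver and was not listed for WAT. Acss2, which makes acetyl-CoA from acetate, was 4.75-fold higher in the liver by the means, though WAT replicate 1 at 214.8 CPM lay above liver replicate 3 at 206 CPM.

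The regulators of this pathway showed the same mixture. Srebf1, which encodes the transcription factor SREBP1, was at 331.1, 294.3, 278.1 and 322.6 CPM in the liver and at 583.9, 289.4, 223.6 and 230.7 CPM in WAT (0.00 ± 0.27, adjusted p = 0.998). Mlxipl, which encodes the carbohydrate-sensing factor ChREBP, was at 262.3 to 371.3 CPM in the liver and at 74.4 to 140.5 CPM in WAT (1.42 ± 0.21). Pnpla3, a lipid droplet protein that responds to feeding, was at 6.5, 27.7, 1.5 and 23.1 CPM in the liver and at 541.3, 380.6, 90.8 and 121.1 CPM in WAT (-4.36 ± 0.80, adjusted p = 0.000441).

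Within a tissue, several of these genes were ordered alike over the libraries. In WAT, Fasn, Acly, Thrsp, Pnpla3 and Srebf1 were higher in replicates 1 and 2 than in replicates 3 and 4, while Angptl4, Pdk4, Cd36, Fabp4 and Pck1 were lower. Thrsp, a lipogenic factor, was at 653.2, 334.5, 83.8 and 90.8 CPM. Pdk4, which limits the use of pyruvate, was at 58.8, 149.9, 332.0 and 224.4 CPM. In the liver, replicate 3 was lowest for Fasn, Scd1, Thrsp and Pnpla3 and highest for Cd36 and Cyp4a14. These genes were chosen after their values were seen. With 4 libraries in a tissue no correlation was computed. The summed fibroblast and stellate cell markers were also higher in WAT replicates 1 and 2 (0.987% and 1.65% of the library) than in replicates 3 and 4 (0.474% and 0.502%). The sum of the 6 adipocyte markers listed for both tissues was lower (1.48% and 1.36% against 2.19% and 2.16%). Fabp4, named above for this pattern, carried much of that sum. Plin4 and Cidec were also lower in replicates 1 and 2. Pparg and Adrb3 were highest in replicate 1, and Lipe did not follow the split, so that the adipocyte markers had no common order. By the labels, WAT replicates 1 and 2 were both in lane 5, replicate 3 in lane 4 and replicate 4 in lane 6. The part of these cells in this pattern was not tested, and lane and replicate cannot be told apart here.

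**Figure D3:**
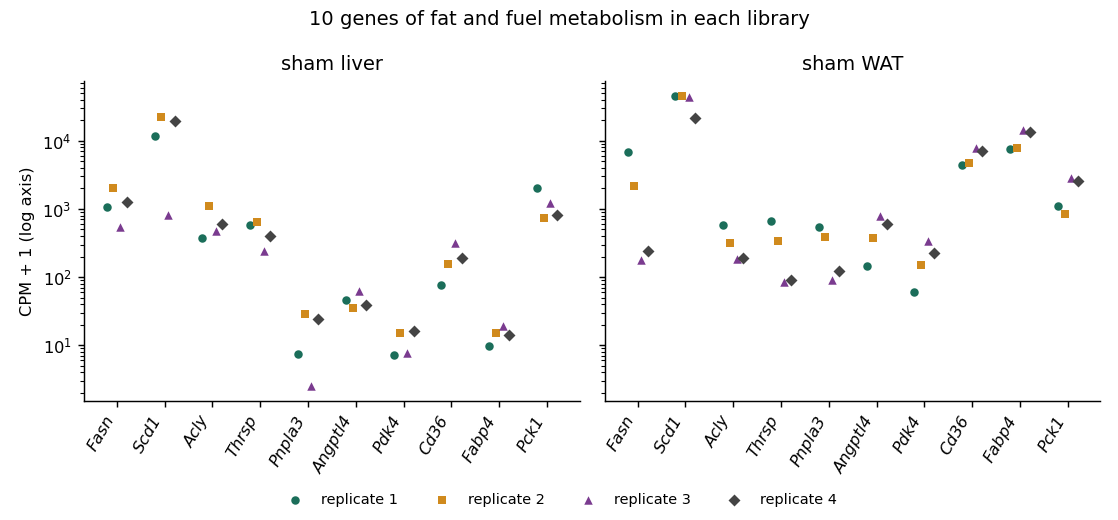
CPM + 1 (y axis, log scale) of 10 genes (x axis) in each sham liver library (left panel) and each sham WAT library (right panel), with 1 symbol for each replicate. In WAT, replicates 1 and 2 (circles and squares) are above replicates 3 and 4 (triangles and diamonds) for Fasn, Acly, Thrsp and Pnpla3 and below them for Angptl4, Pdk4, Cd36, Fabp4 and Pck1; in the liver, replicate 3 (triangles) is lowest for Fasn and Scd1. The labels did not say whether equal numbers in the panels mark the same mouse.

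Genes for the oxidation of fatty acids were mostly higher in the liver, moderately so for the mitochondrial route. Of 24 mitochondrial members tested, 14 were higher in the liver, 2 in WAT and 8 were not called. Of all genes tested, 12.3% were higher in the liver and 60.1% in WAT. After scaling 22 members were higher in the liver and 0 in WAT, beside 29.1% and 30.6% of all genes. Cpt1a, which admits fatty acids to the mitochondrion, was at 281.8, 370.5, 337.0 and 407.9 CPM in the liver and at 119.9, 147.4, 188.2 and 230.0 CPM in WAT (1.05 ± 0.20, adjusted p = 0.000514). Acaa2, a thiolase, was at 780.2, 885, 1226.1 and 796.1 CPM in the liver and at 110.6 to 142.3 CPM in WAT, the largest difference among the enzymes of the spiral (2.82 ± 0.16). Acadvl, the dehydrogenase for very long chains, was 2.56-fold higher in the liver by the means. Acadm, the dehydrogenase for medium chains, was at 219.5, 243.9, 484.9 and 299.7 CPM in the liver and at 222.3 to 303.2 CPM in WAT, and it was not called in CPM (0.12 ± 0.23) but was after scaling (1.03).

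Genes of the peroxisomal route were more clearly higher in the liver. Of 17 members tested, 12 were higher in the liver, 3 in WAT and 2 were not called, and after scaling 14 and 1. The shares of all genes tested were 12.3% and 60.1% in CPM, and 29.1% and 30.6% after scaling. Phyh, which starts the breakdown of phytanic acid, was at 1966.4, 1964, 2597.3 and 1850.1 CPM in the liver and at 147.5, 141.5, 118.8 and 112.7 CPM in WAT (3.99 ± 0.15, adjusted p = 3.07e-09). Amacr, which serves branched chains and bile acids, was 17.1-fold higher in the liver by the means. The transporters of the peroxisomal membrane were split. Abcd3 was at 642.6 to 995.1 CPM in the liver and at 96.7 to 118 CPM in WAT, and Abcd2 was at 8.1 to 35.3 CPM in the liver and at 567 to 712.2 CPM in WAT (-5.16 ± 0.34, adjusted p = 1.63e-07). The omega-oxidation genes Cyp4a10 and Cyp4a14 were not listed for WAT. In the liver Cyp4a14 was at 122.4, 238.8, 1729.1 and 483 CPM, with replicate 3 the highest. Cyp4a10 and Cyp4a14 belong to a family of close copies whose reads can be shared, so that their split is uncertain.

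Of the genes of ketone body metabolism, Bdh1 was higher in the liver and Oxct1 was higher in WAT. Bdh1, which makes 3-hydroxybutyrate, was at 186.9, 240.6, 353.4 and 236.5 CPM in the liver and at 0.4, 0.5, 1.9 and 0.7 CPM in WAT (7.11 ± 0.25, adjusted p = 2.19e-09). Oxct1, the transferase that peripheral tissues need to burn ketone bodies, was at 3.3, 6.5, 5.6 and 6.1 CPM in the liver and at 306.6, 261.9, 208.4 and 257 CPM in WAT (-5.37 ± 0.18, adjusted p = 1.82e-09). Of the 9 members tested, 7 were higher in the liver, and Oxct1 was the member higher in WAT, under both scalings. Over all genes tested, 12.3% were higher in the liver and 60.1% in WAT, and after scaling 29.1% and 30.6%. Slc16a6 was not called in CPM (0.09 ± 0.22).

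Genes for the secretion of lipoproteins were mostly higher in the liver. Of 29 members, 18 were listed for both tissues and 11 for the liver but not for WAT, among them Apob at 6708.6, 6383.5, 6198.6 and 8756.0 CPM, Apoa1 at 2828.6 to 7399.6 CPM, Apoa2 at 4045.7 to 5755.9 CPM and Apoc3 at 1398.5 to 1775.6 CPM. Of the 18 tested, 11 were higher in the liver and 6 in WAT, and after scaling 12 and 3. The shares of all genes tested were 12.3% and 60.1% in CPM, and 29.1% and 30.6% after scaling. Mttp, which loads lipid onto apolipoprotein B, was at 347.2, 420.7, 374.6 and 389.7 CPM in the liver and at 5.0, 5.4, 5.0 and 5.4 CPM in WAT (5.95 ± 0.08, adjusted p = 2.17e-11). Apoa4 was at 603.1 to 1389.6 CPM in the liver and at or below 1.7 CPM in WAT, and Lcat, which esterifies cholesterol in plasma, at 263.8 to 384.6 CPM and at 1.5 to 2.7 CPM. Apoe was abundant in both tissues, with 9340.6 to 14546.1 CPM in the liver and 4001.8 to 5047.9 CPM in WAT (1.37 ± 0.28, adjusted p = 0.000873). Macrophages also make apolipoprotein E, and the part of the macrophage RNA of WAT in this level was not tested.

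The members higher in WAT were Sort1, Pltp, Abcg1, Scarb1, Lrp1 and Abca1, and the first 3 of them were higher in WAT after scaling too. Pltp, which transfers phospholipid between lipoproteins, was at 33.6, 53.9, 37.0 and 53.9 CPM in the liver and at 627.5, 796.8, 741.8 and 1108.3 CPM in WAT (-4.17 ± 0.21, adjusted p = 1.97e-08). Abcg1, a cholesterol exporter, was 19.0-fold higher in WAT and Sort1, a sorting receptor, 25.3-fold higher by the means. Scarb1, the receptor for high density lipoprotein, had a log2 fold change of -0.81 in CPM and 0.11 after scaling.

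The genes of cholesterol synthesis were nearly all higher in the liver. Of 24 members tested, 22 were higher in the liver, 1 was higher in WAT and 1 was not called, beside 12.3% of all genes higher in the liver. After scaling the counts were 23 and 1, beside 29.1% and 30.6% of all genes. The median log2 fold change was 2.54. Sqle, which oxidises squalene, was at 216.7, 213.3, 93.2 and 149.4 CPM in the liver and at 23.5, 19.1, 14.8 and 15.5 CPM in WAT (3.08 ± 0.26, adjusted p = 9.59e-07). Cyp51, which demethylates lanosterol, was at 368.4, 433.8, 281.8 and 268.1 CPM in the liver and at 40.4, 35, 23.1 and 25 CPM in WAT (3.42 ± 0.21, adjusted p = 7.76e-08). Srebf2, which encodes the factor that turns on these genes, was at 57 to 80.3 CPM in the liver and at 66 to 101.2 CPM in WAT and was not called in CPM (-0.29 ± 0.15, adjusted p = 0.1). After scaling it was 0.62. The enzymes that esterify cholesterol were divided. Soat2 was at 29.4, 37.8, 35.6 and 40.4 CPM in the liver and at 0.7, 0.4, 1.6 and 1.4 CPM in WAT, and Soat1 at 4.1, 7.3, 7.0 and 7.2 CPM and at 60.9, 68, 76.6 and 102.9 CPM.

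The promoters of the cholesterol genes shared features of sequence. RefSeq (GRCm38.p6) gave the 250 bases before the start of 224 of the 291 genes and of 27025 genes in all. The letters CCAAT, on either strand, were present in 17 of 19 promoters of the cholesterol list (89.5%), against 34.5% of all promoters, and the letters TATAAA in 0 of 19, against 13%. The letters GGGCGG were present in 16 of the 19 (84.2%, against 32.9%). Over the 224 promoters of all lists, CCAAT was in 44.6%, GGGCGG in 53.1% and TATAAA in 9.82%. The mitochondrial oxidation list also had TATAAA in 0 of 21 promoters, and GGGCGG in 14 (66.7%). With both strands counted, CCAAT and GGGCGG can share letters, so that these counts are not independent of each other. The bile acid list had CCAAT in 3 of 12 promoters (25.0%) and TATAAA in 6 of 12. Of the genes listed for the liver but not for WAT, 13 of 36 (36.1%) held TATAAA, and of those listed for WAT but not for the liver, 2 of 19 (10.5%). The strings were chosen with the lists in view and a match is no proof of use. The 150 bases before the start of 4 cholesterol genes are shown since they carry the CCAAT letters near the start, with these letters, or ATTGG on the other strand, in capitals. They are Hmgcs1 (chr13:119690201-119690350, plus strand), Sc5d (chr9:42264301-42264450, minus strand), Cyp51 (chr5:4104698-4104847, minus strand) and Msmo1 (chr8:64733579-64733728, minus strand).
Hmgcs1: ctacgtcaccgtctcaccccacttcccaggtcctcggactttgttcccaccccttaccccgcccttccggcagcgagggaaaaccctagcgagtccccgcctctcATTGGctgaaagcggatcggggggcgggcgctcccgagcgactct
Sc5d: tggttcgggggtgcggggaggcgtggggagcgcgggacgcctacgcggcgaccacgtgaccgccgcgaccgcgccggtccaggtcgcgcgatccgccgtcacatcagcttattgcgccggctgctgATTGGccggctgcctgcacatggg
Cyp51: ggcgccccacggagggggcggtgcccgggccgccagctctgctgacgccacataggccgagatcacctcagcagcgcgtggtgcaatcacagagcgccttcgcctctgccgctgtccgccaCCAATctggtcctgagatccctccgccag
Msmo1: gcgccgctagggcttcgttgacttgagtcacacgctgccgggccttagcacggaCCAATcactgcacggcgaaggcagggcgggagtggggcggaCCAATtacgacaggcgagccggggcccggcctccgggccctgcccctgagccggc
The match began 45 bases before the start in Hmgcs1, 24 in Sc5d and 29 in Cyp51, and Msmo1 held 2 matches. For comparison, 3 liver genes that were not listed for WAT are shown with TATAAA in capitals. They are Apob (chr12:7977527-7977676, plus strand), Fabp1 (chr6:71199729-71199878, plus strand) and Cyp8b1 (chr9:121916306-121916455, minus strand).
Apob: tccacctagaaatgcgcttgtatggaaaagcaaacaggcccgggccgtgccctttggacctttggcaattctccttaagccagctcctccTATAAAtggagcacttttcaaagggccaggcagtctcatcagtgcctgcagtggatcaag
Fabp1: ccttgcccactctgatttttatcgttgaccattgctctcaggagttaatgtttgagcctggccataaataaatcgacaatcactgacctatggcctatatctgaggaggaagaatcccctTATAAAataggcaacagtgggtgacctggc
Cyp8b1: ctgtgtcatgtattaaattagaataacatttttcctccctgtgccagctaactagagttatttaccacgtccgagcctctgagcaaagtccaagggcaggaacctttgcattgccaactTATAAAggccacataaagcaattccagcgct
The match began 30 bases before the start in Fabp1, 31 in Cyp8b1 and 60 in Apob.

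Genes for bile acid synthesis and transport were found mainly in the liver. Of 15 members, 10 were listed for the liver but not for WAT. The 5 listed for both were all higher in the liver under both scalings, beside 12.3% and 29.1% of all genes tested. Cyp7a1, the limiting enzyme of the classical pathway, was at 249.2, 563.8, 186.6 and 202.8 CPM and Cyp8b1, which sets the share of cholic acid, at 427.2, 685, 853 and 562.1 CPM in the liver. Abcb11, the bile salt export pump, was at 663.2 to 1077.9 CPM. Cyp7b1, an enzyme of the alternative pathway, was at 453.5, 467.5, 302.1 and 279.6 CPM in the liver and at 1.3 to 2.6 CPM in WAT (7.07 ± 0.20, adjusted p = 6.19e-10). Cyp27a1, which opens that pathway, was lower but present in WAT, with 43.4 to 64.5 CPM against 334.7 to 443.5 CPM in the liver. Nr1h4, the bile acid receptor FXR, was at 139.5 to 180.6 CPM in the liver and at 1.4 to 3.7 CPM in WAT.

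The genes for glucose uptake and use differed in isoform between the tissues. Of 19 members tested, 11 were higher in WAT, 4 in the liver and 4 were not called, beside 60.1% and 12.3% of all genes tested. After scaling 8 were higher in WAT and 6 in the liver, beside 30.6% and 29.1% of all genes. The glucose transporter Slc2a4 was at 114.1 to 221.2 CPM in WAT and was not listed for the liver, and Slc2a2 at 256.8 to 304.6 CPM in the liver and was not listed for WAT. The hexokinase gene Hk2 was at 2.5 to 3.7 CPM in the liver and at 52.5 to 138.1 CPM in WAT. Pfkfb3, which drives glycolysis, was at 1226.4, 657.2, 725.9 and 1018.6 CPM in WAT and at 19.8, 18.6, 9.9 and 7.6 CPM in the liver (-5.98 ± 0.30, adjusted p = 2.34e-08). Khk, which phosphorylates fructose, was 45.1-fold higher in the liver by the means. The gluconeogenic enzymes Fbp1 (853 to 2078.3 CPM) and G6pc (372 to 692.1 CPM) were listed for the liver but not for WAT. Pck1 was not called, with 2026.3, 742, 1200.2 and 817.8 CPM in the liver and 1106.1, 828.9, 2871.4 and 2579.1 CPM in WAT (-0.55 ± 0.45, adjusted p = 0.268). In the liver this enzyme serves gluconeogenesis and in fat it serves the making of glycerol phosphate.

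A ratio of 2 related genes within a library does not depend on how libraries or tissues were scaled, apart from the pseudocount. Of 26 pairs, 15 had both genes listed for both tissues. In 8 of the 15 the 4 livers did not overlap the 4 WAT libraries, and each reached the smallest p that 4 against 4 libraries allow (two-sided exact permutation test, p = 0.0286). Adjusted over the 15 pairs this was 0.0536, so that 0 pairs passed at 0.05. The log2 ratio of Gys2 to Gys1, the liver and muscle forms of glycogen synthase, was 5.10 ± 0.26 (SD, n = 4) in the liver and -4.27 ± 1.09 in WAT. Ppara, the receptor that raises oxidation, over Pparg, the receptor of adipocyte differentiation, was 2.64 ± 1.01 and -5.11 ± 0.28, and Soat2 over Soat1 was 2.33 ± 0.17 and -5.29 ± 0.31.

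Smaller shifts in the log2 ratio were seen in other pairs. Lpin2 over Lpin1 was 1.73 ± 0.65 in the liver and -3.11 ± 0.33 in WAT. Acsl5 over Acsl1, which activate long-chain fatty acids, was -0.69 ± 0.55 and -3.82 ± 0.35. Dgat2 over Dgat1 was 4.41 ± 0.31 and 2.02 ± 1.26, so that Dgat2 led in both tissues. Ppargc1a over Ppargc1b, coactivators of mitochondrial genes, was 1.90 ± 0.26 and 0.24 ± 0.25. Per kilobase of exon, the member with more transcript differed between the tissues in 9 of the 15 pairs. Ppara made up 82.0% of the pair with Pparg in the liver and 1.89% in WAT, and Soat2 made up 96.2% of its pair in the liver and 5.38% in WAT. The log2 ratios of Acacb to Acaca, which place malonyl-CoA at the mitochondrion or in the cytosol, did not separate the tissues (0.64 ± 0.37 and 0.35 ± 0.92, exact permutation p = 0.629).

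**Figure D4:**
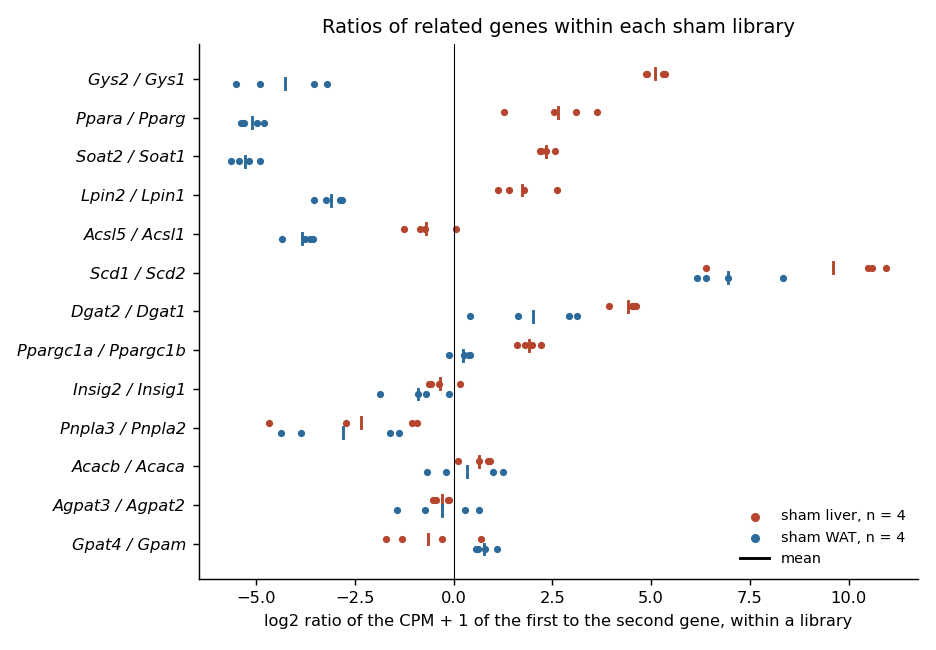
Log2 ratio of the CPM + 1 of the first to the second gene of 13 pairs (rows), computed within each sham liver library (red) and each sham WAT library (blue), with short lines at the means (n = 4). The 4 red points lie apart from the 4 blue points in 7 of these pairs, among them Gys2 over Gys1 (5.10 against -4.27) and Ppara over Pparg (2.64 against -5.11), and they overlap for Acacb over Acaca and Agpat3 over Agpat2.

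The transcription factors and hormones added single strong differences to lists called in both directions. Of all genes tested, 12.3% were higher in the liver and 60.1% in WAT, and after scaling 29.1% and 30.6%. Of 17 factors tested, 6 were higher in the liver and 6 in WAT, and after scaling 10 and 4. Creb3l3, a membrane-bound factor of hepatocytes, was at 253.2 to 326.7 CPM in the liver and at 2.4 to 3.4 CPM in WAT (6.14 ± 0.12), and Hnf4a at 552.2 to 639.3 CPM was not listed for WAT. Pparg was at 7.7, 9.7, 25.7 and 10.5 CPM in the liver and at 242.5, 219.3, 200 and 220.1 CPM in WAT (-4.09 ± 0.29, adjusted p = 2.63e-07), and Ebf1, a factor of the adipocyte line, at 179.7 to 254 CPM in WAT was not listed for the liver. Of 13 hormone and receptor genes tested, 3 were higher in the liver and 7 in WAT, and after scaling 5 and 3. Gcgr, the glucagon receptor, was at 229.4 to 255.1 CPM in the liver and at 3.0 to 9.7 CPM in WAT. Irs1 and Irs2, which pass on the insulin signal, were 3.86-fold and 9.99-fold higher in WAT by the means. Lep, which encodes leptin, was at 789.1, 1754.4, 644 and 1239.7 CPM and Adipoq at 1692.4 to 2153.1 CPM in WAT. Of the 3 heat production genes tested, 1 was higher in WAT (Adrb3) under both scalings. Ucp1, which uncouples mitochondria in brown and beige fat, was at 7.8, 14, 0.8 and 15 CPM in WAT.

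Outside the lists, the largest differences toward the liver were in Serpina1b, Itih4, Serpina1e and Itih3, which encode secreted plasma proteins, and in Pigr, which encodes a membrane receptor for immunoglobulins. They had log2 fold changes between 9.83 and 10.92. Serpina1b and Serpina1e are close copies of each other, so that their split is uncertain. Large differences toward WAT were in Gsn (-8.84), Slc1a5 (-8.14), Npr3 (-7.95) and Cav1 (-7.81). Gsn, an actin-severing protein, was between 9275.2 and 10654.9 CPM in WAT and between 15.3 and 40.8 CPM in the liver. Cav1, the coat protein of caveolae, was between 1742.5 and 2714.9 CPM in WAT and between 3.9 and 14.1 CPM in the liver.

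The same difference between the tissues was then measured in the RYGB libraries, which the sham comparison did not use. There 8268 genes (73.6%) were DEGs, 11.8% of the genes higher in the liver and 61.8% higher in WAT, and 7187 genes were called in the same direction in both, which was 88.5% of the sham DEGs and 86.9% of the RYGB DEGs. The interaction of tissue and surgery was called for 2588 of the genes tested (23.0%), 14.8% of the genes tested moving toward the liver and 8.24% toward WAT, and for 57 of the 214 lipid and fuel genes (26.6%). Of the 21 genes tested for fatty acid synthesis, 8 had a called interaction, and Scd2 (-0.09), Fads1 (0.12) and Fads2 (0.04) did not. Scd1 had a log2 fold change of liver over WAT of -2.24 in sham and -7.40 in RYGB mice (interaction -5.16 ± 1.32, adjusted p = 0.00993), Thrsp of 1.09 and -3.88 (interaction -4.98), and Fasn of 0.28 and -4.21 (interaction -4.49). Acly, which makes cytosolic acetyl-CoA, turned from 1.05 to -1.68 and Pdk1, which restrains pyruvate oxidation, from 0.87 to -0.76, each called in both. The sham call of Acly was lost without liver replicate 2 or 4 or WAT replicate 2, 3 or 4. Of the 20 storage genes tested, 5 had a called interaction. Plin4 was -9.59 in sham and -7.82 in RYGB mice, Cidec -9.28 and -7.10, and Lpl, of the uptake list, -7.56 and -5.71. The 4 sham libraries of each tissue enter both the sham value and the interaction.

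**Figure D5:**
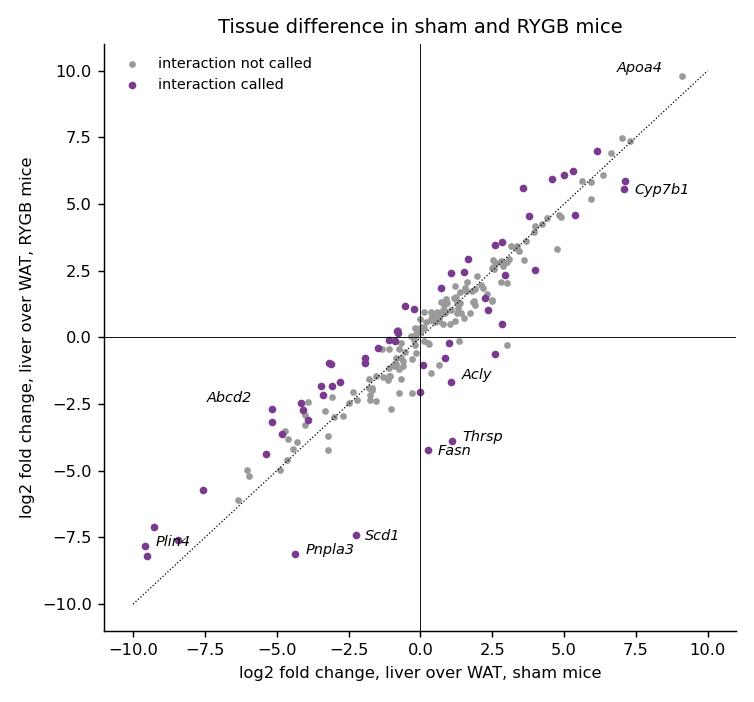
Log2 fold change of liver over WAT in the sham libraries (x axis) and in the RYGB libraries (y axis) for the 214 tested lipid and fuel genes, with 1 point for each gene and a dotted line where both are equal. Purple points had a called interaction of tissue and surgery (57 genes). Most points lie near the line, and Scd1, Fasn, Thrsp and Pnpla3 lie farthest below it.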

How the data were processed

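The deposited tables held CPM, which the authors had computed per 1000000 counts of each library and rounded to 0.1, for genes that reached 1 CPM in at least 4 of the 8 libraries of a tissue. HTSeq and GRCm38 are named in the submitters' processing notes. The aligner is not given in the sources used here. Libraries were stranded mRNA libraries. In the column of liver replicate 4, of other unit on 12 incomplete lines, the deposited values were otherwise CPM, and those lines were left out. Repeated lines (1 in the liver, 379 in WAT) were counted once. The total count of a library, and so its depth, is unknown and no counting interval is given. The listed CPM summed to between 985098.5 and 989953.9 in the sham livers and between 962798.3 and 969596.5 in sham WAT.

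Genes were joined on the Ensembl identifier and had a mean of at least 1 CPM. Values were tested as log2(CPM + 1) with limma 3.58.1 in R 4.3.3 (moderated test with trend, Benjamini-Hochberg adjustment), which was tested on simulated data. Ratios of related genes were tested by exact permutation (70 permutations) in Python 3.11.15. Alternatives were median-ratio scaling, a pseudocount of 0.1, a minimum of 10 CPM, a replicate block and leaving out each library. Gene positions and exon lengths are from GENCODE. Any gene of the lists could be named, with preference for pair members and then for large differences or levels, and outside the lists the 5 largest differences each way. The members and lists were chosen with earlier results of these data known. Some genes of the lists are not reported here by name. The sum of the synthesis genes without Scd1 was added after seeing the data.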

Additional observations from a re-analysis of the deposited data

Results flagged for a closer look

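The difference between the tissues was itself different after RYGB for 45 of the genes named above. The call was the interaction of tissue and surgery in limma, with an adjusted p under 0.05 and at least 1.5-fold. The genes named numbered 130, among them genes listed for 1 tissue, for which no interaction was computed. Over all genes tested, 23.0% were called. The genes named were partly chosen for large differences or levels. Values are the log2 fold change of liver over WAT in RYGB mice less that in sham mice. It moved toward WAT for Scd1 (-5.16), Thrsp (-4.98), Fasn (-4.49), Pnpla3 (-3.75), Acss2 (-3.24), Serpina1e (-3.22), Acly (-2.72), Elovl6 (-2.32), Srebf1 (-2.06), Serpina1b (-1.99), Pdk1 (-1.64), Cyp7b1 (-1.5), Bdh1 (-1.26), Itih3 (-1.21), Slc16a6 (-1.13), Khk (-0.77) and Acsl5 (-0.76). It moved toward the liver for Abcd2 (2.48), Angptl4 (2.2), Cidec (2.18), Irs2 (2.11), Cd36 (1.99), Npr3 (1.9), Lpl (1.85), Plin4 (1.77), Pck1 (1.73), Pltp (1.72), Gpihbp1 (1.65), Gsn (1.45), Slc1a5 (1.43), Cpt1a (1.38), Pparg (1.35), Fabp4 (1.3), Soat1 (1.23), Pnpla2 (1.2), Irs1 (1.13), Mgll (1.12), Scarb1 (1.05), Oxct1 (0.99), Lrp1 (0.94), Gcgr (0.92), Plin5 (0.91), Prkar2b (0.86), Creb3l3 (0.85) and Gk (0.72). These calls share the sham libraries with the values of the report.

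In 15 of 234 groups of 4 sham libraries, 1 library stood apart from the other 3, where the gap to its nearest neighbour over the range of the group was above Dixon's 95% critical value. About 1 in 20 groups, or 11.7, would do so by chance. Abca1 was at 379.6 CPM in sham WAT replicate 3, against 429.3 to 439.9 CPM in the others (gap over range 0.835). Abcd3 was at 642.6 CPM in sham liver replicate 1, against 953.4 to 995.1 CPM in the others (gap over range 0.902). Acadvl was at 266.1 CPM in sham WAT replicate 1, against 142.4 to 157 CPM in the others (gap over range 0.844). Adipoq was at 1692.4 CPM in sham WAT replicate 2, against 2075.2 to 2153.1 CPM in the others (gap over range 0.847). Amacr was at 13.1 CPM in sham WAT replicate 1, against 8.9 to 9.4 CPM in the others (gap over range 0.861). Apoa4 was at 1389.6 CPM in sham liver replicate 3, against 603.1 to 660.6 CPM in the others (gap over range 0.891). Gpihbp1 was at 6 CPM in sham liver replicate 1, against 15.2 to 18.1 CPM in the others (gap over range 0.836). Hmgcs1 was at 244.9 CPM in sham WAT replicate 3, against 335.2 to 354.1 CPM in the others (gap over range 0.851). Hnf4a was at 639.3 CPM in sham liver replicate 1, against 552.2 to 565.3 CPM in the others (gap over range 0.84). Lcat was at 1.5 CPM in sham WAT replicate 2, against 2.5 to 2.7 CPM in the others (gap over range 0.858). Plin2 was at 275 CPM in sham liver replicate 1, against 397 to 424.6 CPM in the others (gap over range 0.845). Sc5d was at 95.3 CPM in sham WAT replicate 3, against 132.2 to 136.4 CPM in the others (gap over range 0.913). Scd1 was at 21784.3 CPM in sham WAT replicate 4, against 44186.2 to 46075.4 CPM in the others (gap over range 0.944). Serpina1b was at 1.2 CPM in sham WAT replicate 4, against 0.2 to 0.2 CPM in the others (gap over range 1). Soat1 was at 4.1 CPM in sham liver replicate 1, against 7 to 7.3 CPM in the others (gap over range 0.924).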

How the results depend on the processing

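The numbers of DEGs in the sham comparison stayed between 8000 and 8231 when each library was left out in turn, those in RYGB mice between 8086 and 8381, and those of the interaction between 2273 and 2968. Median-ratio scaling changed the split most. It gave 3262 sham genes higher in the liver and 3433 higher in WAT, 3121 and 3300 in RYGB mice, and 49 members of the lists higher in WAT. Under this scaling the log2 fold change turned positive for several genes. It was 0.22 for Abca1, 0.03 for Acsl1, 0.3 for Dgat2 and 0.74 for Elovl1. For Lrp1, Plin2, Scarb1 and Srebf2 it was 0.15, 0.13, 0.11 and 0.62. These turns follow from the shift of all genes by the scaling. The difference between the tissues in the ratio of Acacb to Acaca ranged from -0.04 to 0.60, and that of Pnpla3 to Pnpla2 from -0.06 to 1.24, when each library was left out. The replicate block gave 8126 DEGs in the sham comparison. Libraries of the same number correlated by 0.145, 0.0348, -0.0389 and 0.0405, so that the numbers were not taken to pair them. Among genes named above, Thrsp was called without WAT replicate 1 (1.66) and under the block, and Srebf1 (0.92), Slc16a6 (0.96) and Acadm (1.03) were called under median-ratio scaling. The unknown depth limits what can be said of genes near 1 CPM.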
